A study of Mus musculus with 6 samples.

Results

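The collapsin response mediator proteins (CRMPs), the neuronal tubulins and the microtubule-binding protein Map1b were followed through RNA-Seq profiles of microdissected craniofacial tissue from E12.5 mouse embryos. The set holds 10 genes, picked by symbol from the 38553 genes of the deposited table: *Crmp1*, *Dpysl2*, *Dpysl3*, *Dpysl4* and *Dpysl5* for the CRMPs, *Tubb3*, *Tubb2a*, *Tubb2b* and *Tuba1a* for the tubulins, and *Map1b*. Each symbol matched 1 entry. The genes were chosen partly because *Dpysl4* and *Tubb3* had been seen to be higher in every mutant, so the difference between mutants and controls is described below for these 10 genes without a test.

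The controls were 3 replicates of the genotype Rbfox2 flox/flox, and the mutants were 3 replicates of the genotype Pax3Cre/+:Rbfox2 flox/flox. Whether a replicate was a single embryo or a pool is not given in the sources used here. All embryos carried floxed *Rbfox2* alleles, and the mutants alone also carried Cre as a knock in at the *Pax3* locus, on a mixed genetic background. *Rbfox2* encodes an RNA-binding splicing factor. Cre from the *Pax3* locus is active in the neural crest and in mesoderm that forms somites. The paper also found Pax3 protein in the dorsal neural tube. Which other cells of the dissected tissue kept the gene cannot be read from these data. The deposited unit is FPKM, which scales the fragments of a gene by its length and by the depth of the library, so levels of different genes can be compared per length, and the number of reads behind a value is unknown.

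CRMPs are cytosolic phosphoproteins that bind tubulin dimers and carry the growth cone response to semaphorin signals. Tubulins are the alpha- and beta-subunits of microtubules. Several isotypes, with *Tubb3* as the classical example, mark newly born neurons, and Map1b stabilises the microtubules of growing axons. In the developing face such genes are best known from the neurons of the cranial ganglia and from the adjoining brain, although some CRMPs and tubulin isotypes are also made by mesenchymal cells.

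The samples were comparable in summed FPKM, which ran from 528123 to 590174. *Rbfox2* was lower in every mutant (34.3 to 38.1) than in every control (58.4 to 65.0), and *Pax3*, the locus that carries Cre, averaged 10.6 ± 1.59 FPKM in control and 8.19 ± 0.536 FPKM in mutant tissue (SD, n = 3 each). Markers of cranial mesenchyme, the labelled tissue, were plentiful, with all 14 tested. Replicate 1 of each group stood apart from the other samples on the first principal component, which held 54.7% of the variance, at -19.1 and -17.0 against 7.55 and above. Differences are therefore also given within the replicate numbers. The profiles did not tell numbers 2 and 3 apart, so the separate differences within these numbers are not those of matched pairs. The mean of 4 Y-linked genes was 14.4 and 13.9 in mutant replicates 1 and 2 and at most 0.0541 in the other samples. The groups were thus also unequal in Y-linked expression. A fit with Y-linked expression as a covariate therefore rests mainly on mutant replicate 3 against the controls.

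How far reads can tell these genes apart was read from the transcript sequences of GENCODE M21 (GRCm38), taking for each gene the transcript with the longest coding sequence. *Tubb2a* and *Tubb2b* are neighbours on chromosome 13 of GRCm38, at 34074274 to 34078007 and at 34126748 to 34130466 on the minus strand, and their coding sequences of 1338 bases were identical at 96.5% of positions. Among stretches of 30 coding bases that start at a codon, the first with the most differences between *Tubb2a* and *Tubb2b* is shown. It covers bases 157 to 186 counted from the start codon and is set beside the same stretch of *Tubb3* and *Tubb5*. Differences of this kind are what lets a read be assigned to a single beta-tubulin. Capitals mark bases that differ from *Tubb2a*, and in *Tubb2a* those that differ from *Tubb2b*.
Tubb2a: gaagcTGctggCaaCaaatatgtAcctCgg
Tubb2b: gaagcAActggTaaTaaatatgtGcctAgg
Tubb3: gaGgcCTcCTCTCacaaGtatgtGccCAgg
Tubb5: gaagcCAcAggTGGcaaGtatgtCcctcgA
Even here *Tubb2b* differed from *Tubb2a* at only 6 of 30 bases, against 12 for *Tubb3* and 9 for *Tubb5*. Among all windows as long as a read, 27.8% of those in the *Tubb2a* transcript also occurred in a *Tubb2b* transcript, and 20.0% of those in *Tubb2b* occurred elsewhere. *Tuba1a* shared 54.5% of its windows with other annotated genes, led by *Tuba1c* and by Gm49450, a gene that overlaps *Tuba1a* on the same strand over 26.2% of its exonic bases. The coding sequence of *Tuba1a* matched that of *Tuba1b* at 98.3% and that of *Tuba1c* at 97.1% of positions. *Tubb3*, *Map1b* and the 5 CRMP genes shared 0 windows with any other gene. How the authors assigned shared reads is not given in the sources used here, so the values of *Tubb2a*, *Tubb2b* and *Tuba1a* are less certain than those of the other 7 genes.

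All 10 genes were clearly expressed and passed the filter used for testing, a minimum FPKM of 5 to be exceeded throughout at least 1 of the groups, which kept 10061 genes. *Tuba1a*, the main alpha-tubulin of young neurons, was the highest, with a mean FPKM of 1877 over the 6 samples and rank 18 of the 10061 genes. *Tubb2b* and *Tubb3* followed at 696 and 408, then *Dpysl3* at 168, *Crmp1* at 110, *Tubb2a* at 101, *Map1b* at 47.6, *Dpysl4* at 43.2, *Dpysl5* at 43.1 and *Dpysl2* at 18.7. The lowest of them, *Dpysl2*, was close to the median gene tested, which had a mean FPKM of 20.3.

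**Figure D1:**
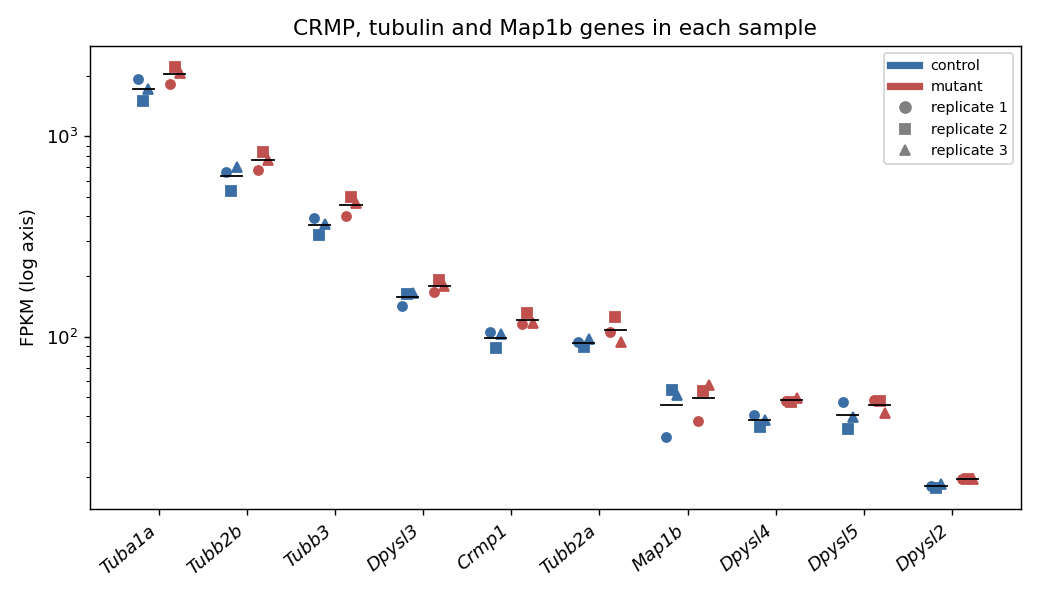
FPKM of the 10 genes (log axis) in 3 control and 3 mutant samples, with a symbol for each replicate number and a line at each group mean. The genes span levels from about 18.7 (*Dpysl2*) to 1877 (*Tuba1a*), and the mutant mean is above the control mean for each of them.

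The order of the levels was the same in all samples for most neighbours. The exceptions were *Crmp1* over *Tubb2a*, which held in 5 of 6 samples, *Map1b* over *Dpysl4*, which held in 4 of 6, and *Dpysl4* over *Dpysl5*, which held in 2 of 6. Levels of paralogues within a sample had played no part in the choice of the genes, so all 10 pairs of CRMPs and all 6 pairs of tubulins were compared. In 15 of the 16 pairs the same gene was higher in 6 of 6 samples. Each of these passed an exact two-sided paired permutation test over the 6 samples. In this test p was 0.0312, the smallest that 6 samples can give, and 0.0333 after Benjamini-Hochberg adjustment over the 16 pairs. The test takes the 6 samples as independent, although the first replicates of both groups lay apart from the other samples, so p may be too small. It addresses only a constant order of FPKM values, and a bias of a gene shared by all samples was not tested. Every tubulin pair holds *Tubb2a*, *Tubb2b* or *Tuba1a*, whose values are less certain.

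Among the CRMPs, *Dpysl3*, a family member that is also common outside neurons, led *Crmp1* by 0.61 ± 0.162 (SD, n = 6) on the log2(FPKM + 1) scale, 1.53-fold. *Crmp1* in turn was 2.51-fold above *Dpysl4*, and *Dpysl3* was 8.56-fold above *Dpysl2*. *Dpysl4* and *Dpysl5* could not be separated. Their difference was 0.003 ± 0.143 (SD, n = 6), with values from -0.20 to 0.24 in single samples (exact paired permutation test, p = 1.0). Among the tubulins, *Tuba1a* exceeded *Tubb2b* 2.70-fold, *Tubb2b* exceeded *Tubb3* 1.71-fold and *Tubb2a* 6.82-fold, and the ratio of *Tuba1a* to *Tubb3* was the steadiest, at a log2 difference of 2.20 ± 0.0567 (SD, n = 6).

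*Dpysl4* (chromosome 7 of GRCm38, 139086001 to 139102704, plus strand), a CRMP of developing neurons, had an FPKM of 40.8, 35.6 and 38.6 in control replicates 1, 2 and 3. In mutant replicates 1, 2 and 3 it was 47.7, 47.5 and 49.2. The groups did not overlap, and the lowest mutant was 16.5% above the highest control, the widest gap among the 10 genes. Control samples averaged 38.3 ± 2.61 and mutant samples 48.1 ± 0.963 (SD, n = 3 each), 125.6% of the control mean, a log2 fold change of 0.32 (standard error 0.0779 from limma). The difference was 0.22, 0.41 and 0.34 on the log2 scale within replicate numbers 1, 2 and 3. In whole tissue, here and for the genes that follow, a different number of cells that express a gene and a different amount of its RNA per cell cannot be told apart.

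*Tubb3* (chromosome 8, 123411424 to 123422015, plus strand), the beta-tubulin of neurons, was at 392, 322 and 366 in controls and at 402, 498 and 466 in mutants. Every mutant was above every control, but mutant replicate 1 exceeded the highest control by only 2.54%. Means were 360.0 ± 35.3 and 455 ± 48.8 (SD, n = 3 each), a log2 fold change of 0.34 (standard error 0.122). Nearly all of it came from replicates 2 and 3, where the log2 difference was 0.63 and 0.35, against 0.036 in replicate 1.

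*Crmp1* (chromosome 5, 37241940 to 37292133, plus strand), a CRMP abundant in embryonic brain, was at 105, 87.4 and 103 in controls and at 115, 131 and 117 in mutants. Again no mutant lay within the control range. Means were 98.6 ± 9.76 and 121 ± 8.82 (SD, n = 3 each), a log2 fold change of 0.30 (standard error 0.103), with 0.58 of difference in replicate 2 and 0.13 and 0.18 in replicates 1 and 3.

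*Dpysl2* (chromosome 14, 66802864 to 66868688, minus strand) encodes CRMP2, which binds tubulin dimers and promotes axon growth. It was at 17.9, 17.6 and 18.4 in controls and at 19.4, 19.6 and 19.4 in mutants, so the groups were apart although the difference was the smallest of the 10, at 0.11 on the log2 scale (standard error 0.067). The replicates of this gene were very close. Its coefficient of variation was 2.27% in controls and 0.755% in mutants, against medians of 9.07% and 8.80% over all genes tested.

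*Dpysl3* (chromosome 18, 43320984 to 43438286, minus strand) was at 142, 164 and 165 in controls and at 167, 192 and 178 in mutants. Here too the mutants lay above the controls, by 1.55% at the nearest values. The mutant mean was 114.1% of the control mean, a log2 fold change of 0.19 (standard error 0.0978), and the difference in replicate 1, 0.23, was as large as in replicate 2, also 0.23.

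*Dpysl5* (chromosome 5, 30711564 to 30799375, plus strand) was at 47.0, 34.5 and 39.9 in controls and at 48.1, 47.7 and 41.6 in mutants. Mutant replicate 3 lay inside the control range. The log2 fold change was 0.18 (standard error 0.125), and the replicates differed by 0.030, 0.46 and 0.060. It was 0.075 without control replicate 2, 0.29 without control replicate 1 and 0.050 with the Y-linked covariate.

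Of the other tubulins in the set, *Tubb2b* was at 661, 536 and 701 in controls and at 679, 834 and 766 in mutants. Mutant replicate 1 was below control replicate 3, so the groups overlapped, and the log2 fold change was 0.27 (standard error 0.14). *Tubb2a*, its close copy, was at 93.8, 88.6 and 98.0 in controls and at 106, 125 and 94.5 in mutants. Only mutant replicate 3 was within the control range, and the log2 fold change was 0.20 (standard error 0.115). Leaving out mutant replicate 2 brought it to 0.096, and the Y-linked covariate to 0.018. *Tuba1a* (chromosome 15, 98949837 to 98953703, minus strand) was at 1937, 1497.5 and 1715 in controls and at 1817, 2220.1 and 2076 in mutants. It was lower in the mutant of replicate 1, at -0.093, and higher in replicates 2 and 3, at 0.57 and 0.28, and its log2 fold change over all samples was 0.25 (standard error 0.147).

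*Map1b* (chromosome 13, 99421446 to 99516540, minus strand) was the most variable of the 10, at 31.5, 54.1 and 51.0 in controls and 37.8, 53.7 and 57.4 in mutants. The sample in each group with the low value was replicate 1. The log2 fold change was 0.14 (standard error 0.236), and the groups overlapped almost fully. Without control replicate 1 it turned to -0.10.

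**Figure D2:**
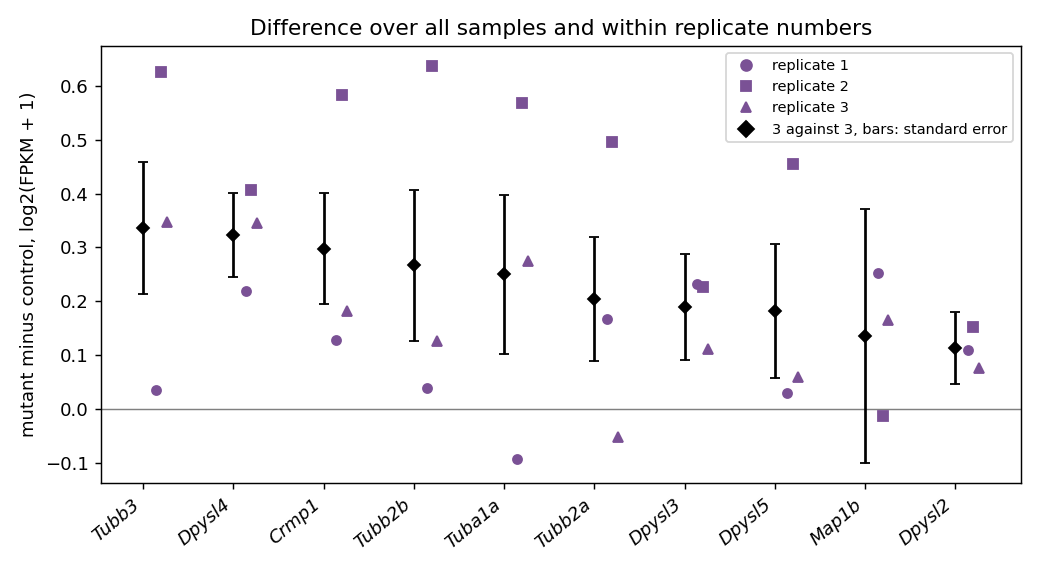
Mutant minus control difference on the log2(FPKM + 1) scale for each gene, over 3 against 3 samples (black diamonds, bars show the standard error from limma) and within each replicate number (purple symbols). The means run from 0.11 (*Dpysl2*) to 0.34 (*Tubb3*). Differences in replicate 2 (squares) reach 0.64, while those in replicate 1 (circles) lie between -0.093 and 0.25.

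Across the 10 genes the mutant mean was the higher in 10, as it was in 52.8% of all tested genes, with a median log2 fold change of 0.23, beside 0.0057 for all 10061 genes tested. In 5 genes, *Crmp1*, *Dpysl2*, *Dpysl3*, *Dpysl4* and *Tubb3*, all mutant values were above all control values, as was true of 2.63% of the genes tested. Since the same contrast was used to choose the genes, nothing can be read from this count. The size depended on the samples. Between the samples numbered 1 the median difference was 0.12, and in replicates 2 and 3 it was 0.32, where the mutants lay above the controls in 8 of the 10 genes and in 25.0% of all genes tested. Control replicate 2 was the lowest of the 6 samples in 8 genes and mutant replicate 2 the highest in 7.

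The make-up of each family was then followed within samples. Summed over the 5 genes, CRMP FPKM was 353, 339 and 365 in controls and 398, 439 and 406 in mutants. *Dpysl3* supplied the largest part, 40.3% to 48.4% in controls and 42.1% to 43.9% in mutants, followed by *Crmp1* with 25.8% to 29.8% and 28.9% to 29.9%. These ranges overlapped. For *Dpysl2* the share averaged 5.09% ± 0.0783 across controls and 4.71% ± 0.206 across mutants (SD, n = 3 each), each mutant lying below each control, so *Dpysl2* was higher in FPKM and smaller as a part of the family.

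Among 8 beta-tubulin genes, *Tubb5*, the isotype of most dividing cells, held the largest share in every sample, 46.4% to 48.6% in controls and 42.9% to 47.1% in mutants. *Tubb3* held 14.4%, 13.2% and 13.4% in controls and 14.5%, 15.9% and 15.7% in mutants, which did not overlap, though replicate 1 differed by little. *Tubb2b* held 23.9% ± 1.82 and 25.7% ± 1.06 (SD, n = 3 each), and *Tubb2a* 3.55% ± 0.0971 and 3.67% ± 0.43. Among the alpha-tubulins, *Tuba1a* made up 60.2% to 66.5% in controls and 64.4% to 67.2% in mutants, and *Tuba1b* nearly all of the rest. No test was made of these shares, since they come from the contrast that was used to choose the genes.

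**Figure D3:**
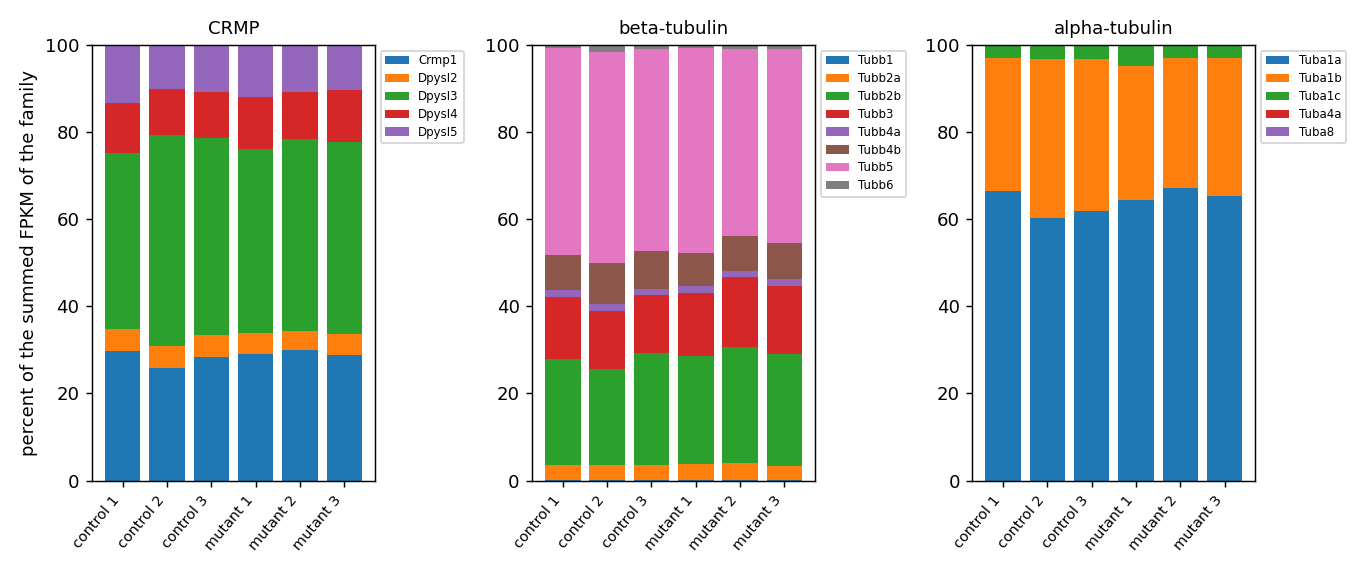
Share of each gene in the summed FPKM of its family in each sample, for 5 CRMP genes, 8 beta-tubulin genes and 5 alpha-tubulin genes. The composition is much the same in every sample, with *Dpysl3*, *Tubb5* and *Tuba1a* as the largest parts and with *Tubb3* between 13.2% and 15.9% of beta-tubulin.

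The deleted factor recognises the sequence UGCAUG in RNA, so the mature transcripts were searched for TGCATG on the sense strand. Introns were not searched, although the paper found the motif enriched only there in its Rbfox2 target genes. In coding sequence it occurred in *Dpysl3* (2 matches) and in *Dpysl4*, *Tuba1a* and *Map1b* (1 match each), and in 30.4% of the tested genes. The motif was in the 3′ UTR of 4 of the 10 genes, *Crmp1*, *Dpysl3*, *Dpysl4* and *Map1b*, and in 32.0% of the 9750 tested genes with a complete coding transcript. At 0.305 per kilobase of 3′ UTR the 10 genes were close to the 0.35 per kilobase of all tested genes. Of the 5 sites, 4 are shown with the motif in capitals to place it for the genes described above, and the site in *Dpysl3* is not printed. The 4 begin 343 bases after the stop codon in *Crmp1*, 715 bases after it in *Dpysl4* and 863 and 3278 bases after it in *Map1b*.
Crmp1: tctaggataggaTGCATGttagtaagttac
Dpysl4: tagccagggatcTGCATGctgctgtaccag
Map1b, nearer site: accaagtcaagcTGCATGcagcaacaccca
Map1b, farther site: ccccgaaccccaTGCATGctttctcagtct
The 4 tubulin genes, with 3′ UTRs of 194 to 723 bases, had no match in them, nor had *Dpysl2* and *Dpysl5*, with 2481 and 3053 bases. A match or its absence describes these letters only.

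The genes around the set were read from the same limma fit over all genes, in which no gene of the 10061 had an adjusted p under 0.05 (the smallest was 0.138) and 167 (1.66%) had an unadjusted p under 0.05. Of 129 genes tested from 10 lists (other tubulins, microtubule-associated proteins, tubulin-folding and tail-modifying enzymes, semaphorin and kinase inputs to CRMPs, cargo partners, and markers of neurons, crest glia, forebrain progenitors, choroid plexus and cranial mesenchyme), none passed the adjusted threshold and 5 had an unadjusted p under 0.05, all of them higher in mutants, where 0.706% of all tested genes were higher at this threshold and 0.954% lower. With a block for the replicate number, 16 of the 129 had an unadjusted p under 0.05, 12 higher and 4 lower in mutants, beside 2.31% and 3.70% of all tested genes in that fit. The 16 held all 5, and again none passed after adjustment. The lists were chosen with earlier results of these data known, so nothing can be read from these counts beside the shares of all genes. With Y-linked expression as a covariate the difference rested mainly on mutant replicate 3 against the controls. In that fit none of the 5 remained. There 2 other genes, the mesenchyme markers *Osr1* and *Osr2*, were under 0.05 and lower in mutants.

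Of those 5 genes, 4 were among the 20 microtubule-associated proteins tested. That count was 0 with the Y-linked covariate, 1 without control replicate 2 or mutant replicate 2, and 2 without control replicate 3 or mutant replicate 1. It was 3 without mutant replicate 3, and 5 with the replicate block, without control replicate 1 and in replicates 2 and 3 only. *Map2*, which spaces the microtubules of dendrites, was at 83.2, 65.3 and 80.9 in controls and 88.1, 98.5 and 98.7 in mutants. Its log2 difference was 0.32 with a standard error of 0.113, and limma gave an adjusted p of 1.0. *Mapt*, which encodes tau of axons, went from a mean of 31.2 ± 1.61 to 37.7 ± 3.19, and *Dcx*, which encodes doublecortin of migrating neurons, from 42.9 ± 3.69 to 51.6 ± 3.73 (SD, n = 3 each), with log2 fold changes of 0.27 and 0.26 and adjusted p-values of 1.0 from limma. For these 3 genes every mutant was above every control. *Map6*, named after its value was seen, was the fourth, at 15.8 ± 2.98 and 20.0 ± 1.70 (SD, n = 3 each). By contrast *Stmn1*, the tubulin-sequestering protein of dividing and immature cells and the most abundant gene of this list, was at 1107 ± 83.0 and 1180 ± 158, with a log2 fold change of 0.085. The median over the 20 genes was 0.066.

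Among 7 other tubulins tested the median log2 fold change was 0.059. *Tuba1c* was at 86.2 ± 4.01 and 108 ± 24.1 (SD, n = 3 each), and this rested on mutant replicate 1, at 136, in a gene that shares read-length windows with *Tuba1a*. *Tubb5* was at 1251 ± 57.7 and 1321 ± 20.0. The 15 folding and tail-modifying enzymes had a median of 0.037, with the folding cofactor gene *Tbce* at -0.18 (standard error 0.107). The 16 cargo partners had a median of 0.060, and the neuronal kinesin heavy chain *Kif5a* was at 12.1 ± 1.06 and 13.9 ± 0.445.

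Upstream of the CRMPs the median over 19 semaphorin, receptor and kinase genes was -0.020, and 7 of the 19 had a higher mutant mean. The ligand genes *Sema3c* and *Sema3f* were at -0.20 (standard error 0.108) and -0.16 (standard error 0.0841), and *Cdk5r1*, which encodes the activator of the CRMP kinase Cdk5, was at 0.22 (standard error 0.167). All 3 had an adjusted p of 1.0 from limma, and control and mutant values overlapped in each.

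**Figure D4:**
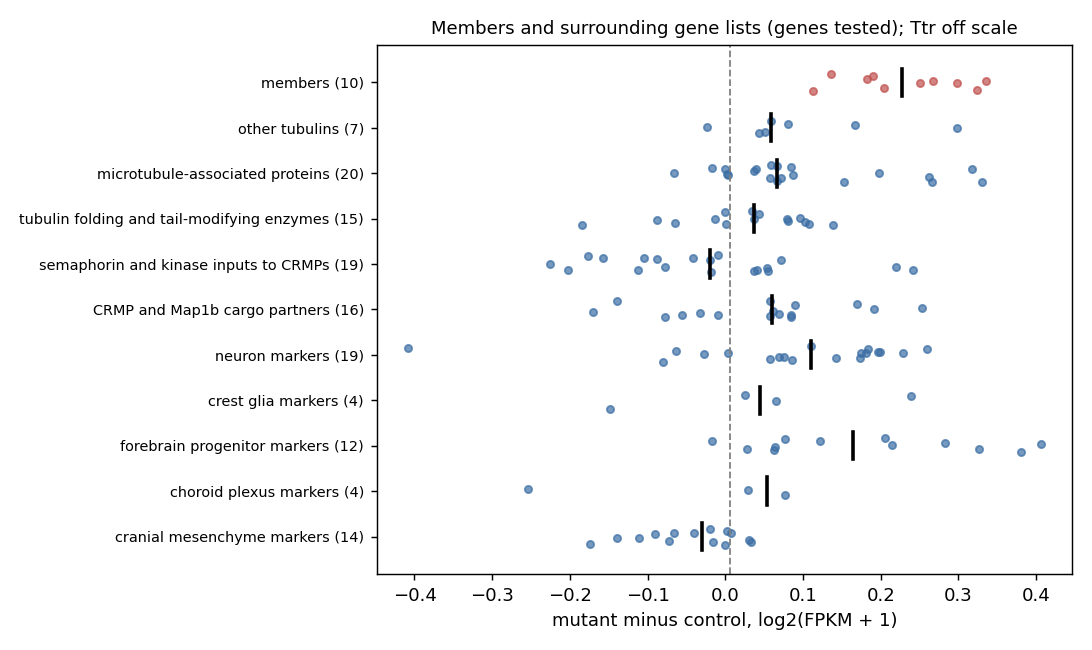
Log2 fold changes, mutant minus control, of the tested genes in the set (red) and in 10 surrounding lists (blue), with the number of genes tested in brackets, a black line at each list's median and a dashed line at the median of all genes tested (0.0057). The set has a median of 0.23, the microtubule-associated proteins 0.066, the neuron markers 0.11 and the semaphorin and kinase inputs -0.020. *Ttr*, at 2.37, lies outside the axis.

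Neuron markers were read beside the set. Of 22 neuron markers, none at 0 in all samples, 19 were tested, 15 of these had a higher mutant mean, and the median log2 fold change was 0.11. A single one, *Elavl3*, had an unadjusted p under 0.05, and none passed after adjustment. This call was lost with quantile normalization, with the Y-linked covariate and without any of control replicate 2 and mutant replicates 1, 2 and 3. The count was instead 4 with the replicate block, 6 without control replicate 1 and 7 in replicates 2 and 3 only. Over all tested genes the same count went from 167 to 604, 649 and 1103 in these settings. The RNA-binding protein gene *Elavl3* was at 29.7 ± 3.05 and 34.8 ± 0.999 (SD, n = 3 each), with every mutant above every control, and *Elavl4* was at 25.8 ± 2.99 and 29.6 ± 1.16. In the other direction *Prph*, the intermediate filament gene of peripheral neurons, had every mutant below every control, at 22.5 ± 6.25 and 16.4 ± 1.43, a log2 difference of -0.41 with a standard error of 0.178 and an adjusted p of 1.0 from limma. The summed FPKM of the 22 markers was 857, 793 and 805 in controls and 889, 922 and 841 in mutants.

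Expressed as a percentage of that sum, 2 of the 10 genes, *Dpysl4* and *Crmp1*, kept all mutants above all controls, as did 0.388% of the genes tested on the same scale. *Dpysl4* had been chosen for being higher in every mutant and the contrast is the same, so nothing can be read from this count. *Dpysl4* was at 4.76%, 4.49% and 4.79% in controls and 5.36%, 5.15% and 5.86% in mutants. *Crmp1* was between 11.0% and 12.8% in controls and between 13.0% and 14.2% in mutants, so its nearest values were close. *Tubb3* was at 45.7%, 40.6% and 45.5% in controls and 45.2%, 54.0% and 55.4% in mutants, which overlapped through replicate 1. *Dpysl2* averaged 2.19% ± 0.103 and 2.21% ± 0.0937 (SD, n = 3 each). The part of neuron content in the differences of the set was not tested.

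**Figure D5:**
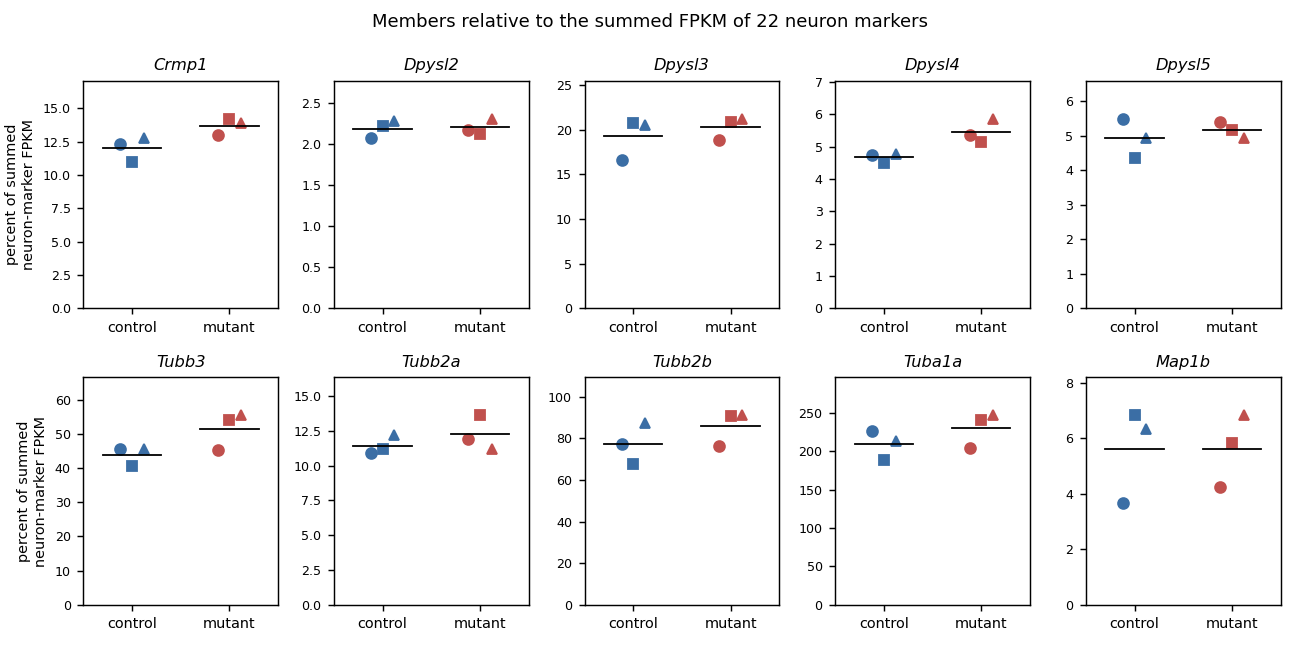
Each gene as a percentage of the summed FPKM of 22 neuron markers in the same sample, with symbols for replicate numbers and lines at group means (axes start at 0). *Dpysl4* and *Crmp1* have all mutants above all controls, and the other 8 genes overlap.

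Other tissues in the dissection varied as well. The 12 forebrain progenitor markers, none at 0, had a median log2 fold change of 0.16. Their summed FPKM was 434, 227 and 322 in controls and 322, 389 and 358 in mutants. Control replicate 2, the sample in which 8 genes of the set were lowest, was also the lowest here. It was the lowest as well in the sums of neuron markers, crest glia markers, microtubule-associated proteins and other tubulins. The highest forebrain sum was in control replicate 1, and 7 genes of the set were highest in mutant replicate 2. Among samples numbered 2 and 3, both mutant forebrain sums were above both control sums. The count of forebrain markers with an unadjusted p under 0.05 from limma was 0 in the main fit. It was 5 without control replicate 1 and 6 in replicates 2 and 3 only. Over all tested genes the same count was 167, 649 and 1103. The 8 choroid plexus markers summed to 40.1 to 103 in controls and 63.8 to 117 in mutants. None of them was at 0 in all samples, and 2 had a mean FPKM under 1. Their tested gene of highest mean, *Ttr*, was at 56.1, 1.04 and 1.91 in controls and at 27.4, 67.6 and 22.9 in mutants. Its groups overlapped, and its log2 fold change was 2.37 (standard error 1.2). The 9 markers of crest glia summed to 204 to 288 and 238 to 355, most of it *Fabp7*, which forebrain radial glia express too, while *Sox10* was at 10.4 ± 1.46 and 10.9 ± 1.44 (SD, n = 3 each). The 14 cranial mesenchyme markers had a median of -0.030 and overlapping sums of 608 to 648 and 564 to 657. The part of these tissues in the differences of the set was not tested.

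Finally, the genes whose profile over the 6 samples was nearest to those of *Tubb3* and *Dpysl4* were listed among the other 13714 genes with a mean FPKM over 1, by the root mean square difference of log2(FPKM + 1) values centred on each gene's mean. For *Tubb3* these were *Bloc1s6* (0.0428), *Tuba1a* (0.0518), *Map2* (0.0568), *Ccdc30* (0.0574) and *Rab33a* (0.0600). *Crmp1* came eighth of all genes, at 0.0620, and *Tubb2b* was at place 21. *Bloc1s6* was at 35.3, 30.4 and 35.1 in controls and 36.9, 44.2 and 44.1 in mutants. For *Dpysl4* they were *Spg11* (0.0407), *Lrrc4c* (0.0429), *Clvs1* (0.0540), *Tigd3* (0.0570) and *Phyhd1* (0.0576). *Spg11* was at 6.91, 6.41 and 6.34 in controls and 8.26, 8.08 and 8.54 in mutants. The profile of *Map1b* was far from both, at places 11995 and 12494 of the 13714. These distances include the contrast used to choose the genes, so the places are a description only.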

How the data were processed

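Stranded poly(A)+ RNA libraries of 3 control and 3 mutant samples were sequenced as paired-end reads. Per the labels and methods, the authors aligned reads to GRCm38 with STAR and deposited FPKM values for 38553 genes. FastQC 0.11.4 and Cuffdiff are named in the submitters' processing notes. The step that made the gene table and its annotation are not given in the sources used here. The 6 tables of single samples held the same values as the table of all samples (0 differences). FPKM corrects for gene length and depth, but hides the read count, so no counting error is given.

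The 10061 genes that exceeded an FPKM of 5 throughout at least 1 group entered a trended fit of log2(FPKM + 1) in limma 3.58.1 (R 4.3.3) without covariates, and Benjamini-Hochberg adjustment covered all of them. Fold changes on this scale understate the change of low genes. Paralogue levels were compared with an exact paired permutation test in SciPy 1.17.1. Of the table's gene identifiers, 95.0% were in GENCODE M21. For *Map4*, with more than 1 entry, the higher was used, and *Svbp* was found by its identifier.

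The members and lists were chosen with earlier results of these data known. From each list the gene of highest mean and up to 3 with the smallest p could be named. Deviations from group means correlated at 0.644, 0.258 and 0.513 between samples numbered 1, 2 and 3, across genes. A block for the replicate number was therefore run as an alternative, and only number 1 stood out as a pair. Numbers 2 and 3 were not told apart, since control 3 correlated with mutant 2 at 0.401 and control 2 with mutant 3 at 0.234. No source ties them to litters. Replicates were independent biological samples per the labels. Alternatives were a pseudocount of 0.1, median-ratio scaling, quantile normalization, a replicate block, a Y-linked covariate, FPKM filters of 1 and none, no trend, each sample left out, and, chosen after seeing the data for counts, replicates 2 and 3 only.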

Additional observations from a re-analysis of the deposited data

How the results depend on the processing

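The median log2 fold change of the 10 genes stayed above 0 under all settings run. With a sample left out it ran from 0.168 (without mutant replicate 2) to 0.324 (without mutant replicate 1). It was 0.12 between the samples numbered 1. With Y-linked expression as a covariate, a fit that rests mainly on mutant replicate 3, it was 0.27. Single genes moved by more than 1.5 times. With the covariate *Tubb2a* was at 0.018, *Dpysl5* at 0.050 and *Map1b* at 0.37. With a sample left out *Dpysl3* was at 0.121 (without control replicate 1), *Dpysl5* at 0.075 and 0.293 (without control replicates 2 and 1), *Tuba1a* at 0.156 and *Tubb2b* at 0.153 (both without control replicate 2), *Tubb2a* at 0.096 (without mutant replicate 2) and *Map1b* between -0.103 and 0.317, every sample moving it. Of 130 combinations of a gene and a setting, 128 were above 0. The exceptions were *Tuba1a* between the samples numbered 1 (-0.093) and *Map1b* without control replicate 1 (-0.10). The settings reuse the same samples and the contrast used to choose the genes, so nothing can be read from this count. The count of 15 of 16 paralogue pairs was the same with a pseudocount of 0.1 and, for the order, within controls or mutants alone.

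No gene passed an adjusted p of 0.05 in limma except 0 to 1 when a sample was left out (1 without mutant replicate 3) and 4 in replicates 2 and 3 only. The 167 genes with an unadjusted p under 0.05 became 604 with the replicate block, 304 with an FPKM filter of 1, 663 with no filter, 1103 in replicates 2 and 3 only, and 78 (without control replicate 2) to 649 (without control replicate 1) with a sample left out (413 without mutant replicate 1, 108 without mutant replicate 2). For the surrounding lists the count of 5 was 16 with the replicate block, which held all 5, 2 with the Y-linked covariate, which held none of them, 33 in replicates 2 and 3 only, and 1 (without control replicate 2) to 24 (without control replicate 1), with 8 without mutant replicate 1 and 3 without each of control replicate 3, mutant replicate 2 and mutant replicate 3. The cause was not tested, and with the Y-linked covariate the difference rests mainly on mutant replicate 3 against the controls. The block changed no call at the adjusted threshold. The read depth behind each FPKM is unknown.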
